A study of Secale cereale x Triticum turgidum subsp. durum with 39 samples.

Results

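Among 61290 probe sets of the Affymetrix Wheat Genome Array, 73 were bright both in mature pollen and in stigmas at the tricellular pollen stage and much dimmer in ovaries of that stage. They were chosen on measured values: the mean log2 signal of 3 arrays was at least 8 in mature pollen and in tricellular-stage stigma, both means were at least 2 above tricellular-stage ovary, and mature pollen was less than 1.5 above tricellular-stage anther. Array controls and the 19 probe sets with a gene symbol other than a locus number were left out, and none of these met the limits. Of 61160 probe sets considered, 3323 reached the level in both samples, 76 of those were far enough above ovary, and the anther limit took away 3. A ceiling of 150 probe sets was not reached.

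RNA came from triticale, a cereal bred by crossing wheat and rye, of the cultivar Alta, grown in a chamber without any treatment. The 39 arrays fell into 13 groups of 3 biological replicates: mature pollen grains, and anthers, stigmas and ovaries at 4 stages named after the pollen in the anther. In order these were the tetrad stage (TET), the stage of microspores with a single nucleus (UNM), the bicellular stage (BCP) and the tricellular stage (TCP). Values were log2 signals, and the number of arrays limits their precision. RNA extraction and labelling kits changed between TET and UNM and again between BCP and TCP, so organs were compared within a stage and stages were tested only from UNM to BCP. Replicates correlated with r of 0.978 to 0.996, and all 39 arrays were most like an array of their own group.

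In grasses the pollen grain is shed with a store of RNA, lands on the feathery stigma, takes up water there and sends out a tube that grows through stigma tissue toward the ovule. The tube extends at its tip, which needs a steady supply of wall material and membrane. The stigma is a receptive surface with elongated cells that captures, hydrates and guides the grain. An anther near maturity holds the pollen, so its RNA includes that of the grain. The comparison asks how early transcripts shared by the mature partners appear in the stigma.

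Only 4 members carry a symbol in the platform annotation, and these are locus numbers (LOC543189, LOC543262, LOC543060 and LOC100049054) without a description. The other 69 have no symbol there, so members are given by probe set and no function is assigned to them. Their names fall into 62 stems, the part that stands for one sequence cluster of the array design, and 21 members share a stem with another member. By the ending of the name, 45 are plain probe sets (_at), 10 target several forms of one gene (_a_at), 10 are shared by several transcripts (_s_at) and 8 hold probes that may bind other sequences (_x_at). Signals of the last 18 can come from more than one gene. Whether each of the others reads a single gene in triticale, on an array named for wheat, was not checked.

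The levels that chose the members are a description and were not tested. The median level of the 73 was 11.61 in mature pollen, 11.34 in tricellular-stage anther and 9.78 in tricellular-stage stigma, against 6.99 in tricellular-stage ovary. All 73 reached a log2 signal of 8 in mature pollen and stigma, 71 did so in anther, and 17 in ovary. Of all probe sets tested, 9.39% did so in mature pollen, 16% in stigma, 13% in anther and 15.9% in ovary. Mature pollen was brighter than stigma for 63 members, and stigma was the brighter one for 10. At the limit on the difference from ovary, the last members inside were Ta.4684.1.A1_at at 2.006 and Ta.28595.2.S1_x_at at 2.015, and the next outside were Ta.23227.1.A1_a_at at 1.998 and Ta.3157.1.S1_at at 1.997. At the limit on level, Ta.2460.1.S1_x_at at 8.04 and Ta.6278.1.A1_at at 8.07 were inside, and Ta.23693.1.S1_at at 7.99 and Ta.2641.2.S1_x_at at 7.98 outside. At the limit against anther, Ta.5713.3.S1_x_at at 1.48 and Ta.22936.1.S1_s_at at 1.44 were inside, and Ta.1562.1.S1_at at 1.81 and Ta.9338.1.S1_at at 2.08 outside.

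**Figure D1:**
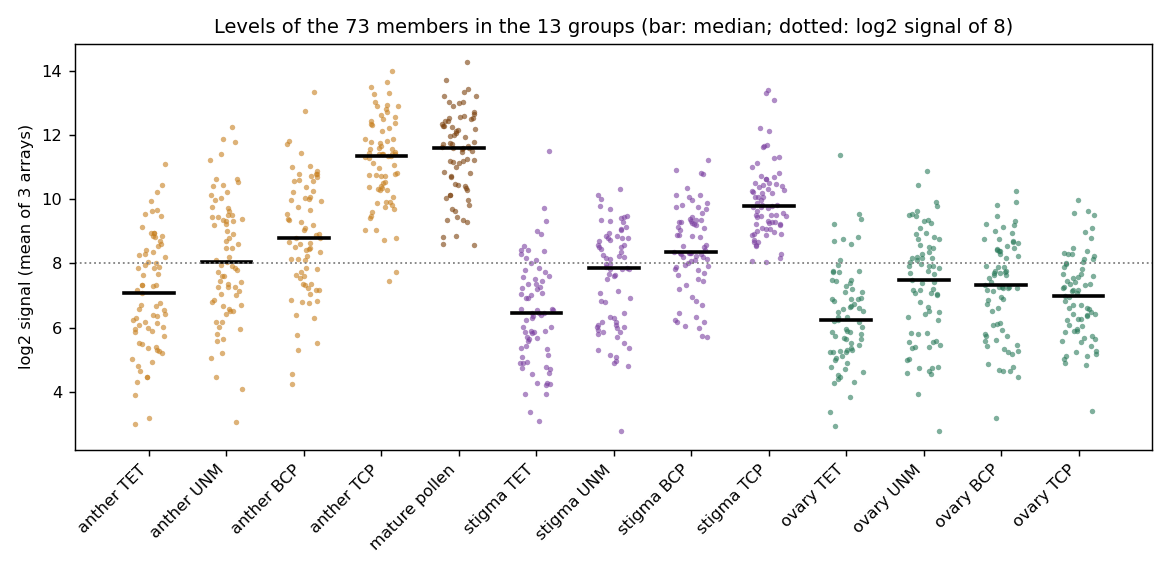
Levels of the 73 members in each of the 13 groups, as log2 signal on the vertical axis. Each point is a member's mean over 3 arrays and each bar the median, which lay at 6.44, 7.85, 8.35 and 9.78 in stigma from TET to TCP and at 6.25, 7.48, 7.33 and 6.99 in ovary.

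Over development the members followed different courses in the organs. In anthers the median level was 7.07 at TET, 8.04 at UNM, 8.78 at BCP and 11.34 at TCP. In stigmas it was 6.44, 7.85, 8.35 and 9.78 at the same stages. In ovaries it was 6.25, 7.48, 7.33 and 6.99. The medians of anther and stigma were thus highest at TCP and that of ovary at UNM. The choice of members itself favoured high stigma and anther levels and low ovary levels at TCP. Kits also changed between TET and UNM and between BCP and TCP, so these courses are a description and were not tested. Members at or above 8 in stigma numbered 13 at TET, 33 at UNM, 50 at BCP and 73 at TCP, the last fixed by the choice. Of all probe sets tested, 15%, 16.2%, 16.2% and 16% reached that level at the same stages, so the count at TET lay near the general share. In whole organs, fewer cells of a type and less RNA per cell cannot be told apart.

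At BCP, the stage before, many members were already higher in stigma than in ovary, on arrays that had no part in choosing them. Of the 73 members, 36 (49.3%) were called higher and 1 (1.37%) lower in stigma, while 3.05% of all 61204 probe sets tested were called higher and 3.85% lower. A call meant a Benjamini-Hochberg adjusted p under 0.05 in limma and a log2 difference of at least 1. The median log2 difference of the members was 0.98 (quartiles 0.53 and 1.98), and that of all probe sets was 0.02. The difference was above 0 for 66 of 73, while the quartiles over all probe sets were -0.15 and 0.18. Poly-A control transcripts, which are added to the RNA before labelling, had similar means of 7.15 in stigma and 7.23 in ovary at this stage. The median of the members ranged from 8.43 to 8.81 on the 3 stigma arrays and from 7.21 to 7.52 on the 3 ovary arrays, so the arrays did not overlap.

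The member with the largest late excess, TaAffx.12611.1.S1_at, also had the largest difference at BCP. It read 7.75, 8.84 and 9.14 in stigma, against 3.08, 2.99 and 3.48 in ovary, a 42.0-fold difference (log2 difference 5.39, SE 0.33, adjusted p = 5.5e-15). The ovary values lay at the dim end of the array scale, so the fold is one of signal. Ta.1824.1.S1_at read 9.47, 9.34 and 9.15 in stigma, against 5.57, 5.11 and 5.30 in ovary (15.9-fold, log2 difference 3.99, SE 0.20, adjusted p = 4.6e-17). TaAffx.105012.1.S1_s_at read 8.78, 9.32 and 9.23 in stigma and 5.36, 5.55 and 4.79 in ovary (14.7-fold, log2 difference 3.88, SE 0.25). In each of these the 3 stigma arrays lay far above the 3 ovary arrays. Ta.8400.1.A1_at was 10.7-fold higher, with means of 8.07 in stigma and 4.65 in ovary. The single member that was lower in stigma, Ta.23252.1.S1_at, had means of 6.34 in stigma and 7.91 in ovary (log2 difference -1.57, SE 0.48, adjusted p = 0.016), and was named after its value was seen. Its arrays overlapped between the organs, and the count of lower members was 0 without stigma replicate 1, stigma replicate 2 or ovary replicate 3.

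**Figure D2:**
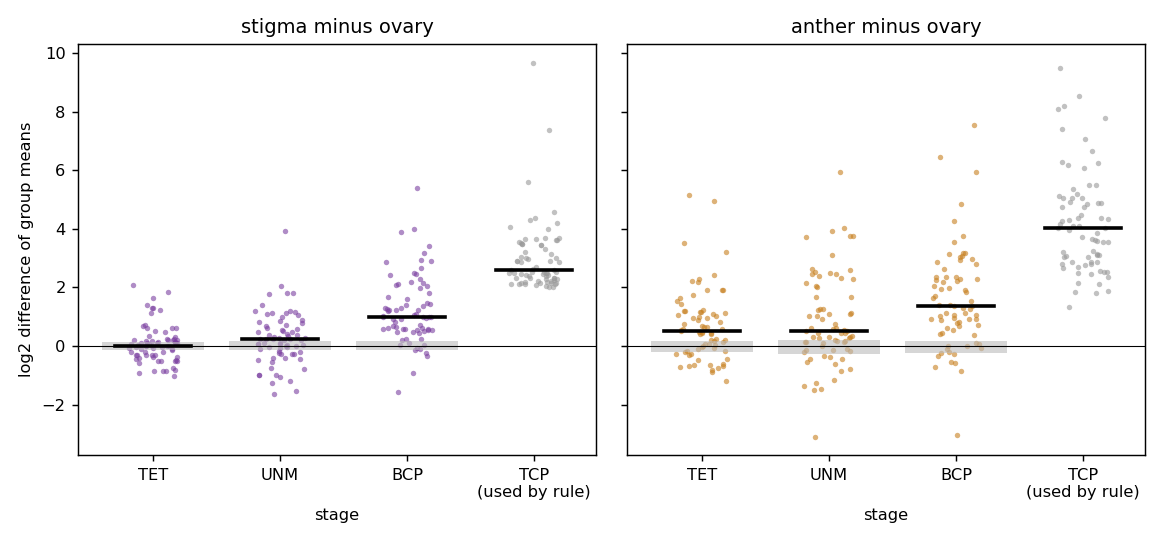
Log2 difference of stigma (left) and anther (right) from ovary at each stage, a point per member, with the median as a bar and the range between the quartiles of all tested probe sets as a grey band at TET, UNM and BCP. Median stigma differences were 0.01, 0.23 and 0.98 at TET, UNM and BCP. The TCP points, in grey, chose the members.

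At UNM the excess in stigma was smaller. Of the 73 members, 13 (17.8%) were called higher and 5 (6.85%) lower in stigma than in ovary, against 1.11% and 1.99% of all probe sets, and the median difference was 0.23. Ta.1824.1.S1_at stood out with 8.35, 8.43 and 8.90 in stigma, against 4.45, 4.69 and 4.77 in ovary (15.2-fold, log2 difference 3.92, SE 0.20, adjusted p = 1.6e-16). Its difference was thus about as large at UNM as at BCP. Ta.8400.1.A1_at was 4.17-fold higher (log2 difference 2.06, SE 0.35), Ta.8564.1.S1_x_at 3.54-fold and Ta.21273.2.S1_a_at 3.50-fold. Lower in stigma were Ta.23252.1.S1_at, Ta.24748.1.S1_at, TaAffx.138472.1.S1_s_at, Ta.3116.1.S1_at and Ta.5713.3.S1_x_at, with log2 differences from -1.63 to -1.05, a list named after its values were seen. Without stigma replicate 2 or ovary replicate 2 the number of lower members was 2, and without stigma replicate 3 it was 8.

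At TET the members as a group showed next to no difference between the pistil organs. The median log2 difference of stigma from ovary was 0.01, and 8 (11%) were called higher and 1 (1.37%) lower in stigma, against 0.703% and 1.12% of all probe sets. The 8 included both members of stem Ta.5118, of which Ta.5118.1.S1_s_at read 8.02, 8.32 and 8.55 in stigma and 5.89, 6.31 and 6.42 in ovary (4.25-fold, log2 difference 2.09, SE 0.29, adjusted p = 4.2e-06). Ta.5118.3.S1_x_at was 3.60-fold and Ta.13392.1.S1_at 2.66-fold higher. Ta.11834.1.A1_at was 3.10-fold higher from dim values, at 5.69, 5.91 and 7.14 in stigma and a mean of 4.62 ± 0.25 (SD, n = 3) in ovary. The one member lower in stigma, Ta.9098.1.S1_a_at, had means of 6.46 in stigma and 7.47 in ovary and was named after its value was seen. The number of lower members ranged from 0 to 2 as single arrays were left out: it was 0 without stigma replicate 2, ovary replicate 2 or ovary replicate 3, and 2 without stigma replicate 3 or ovary replicate 1.

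Sorted by the earliest stage at which a member was called higher in stigma than in ovary, 8 members fell to TET, 8 to UNM and 23 to BCP, against 0.703%, 0.768% and 2.08% of all probe sets. The remaining 34 were called higher at none of these stages. The 39 members called at some stage compare with 3.55% of all probe sets. Of them 3 were called at TET, UNM and BCP alike, against 0.288% of all probe sets, and 11 at both UNM and BCP, against 0.894%. Median stigma levels of the 8 members first called at TET were 7.32, 8.77, 9.35 and 9.92 from TET to TCP. For the 34 members without an earlier call they were 6.34, 8.03, 8.32 and 9.90, and their median in ovary was 8.13 at UNM, 7.90 at BCP and 7.34 at TCP.

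**Figure D3:**
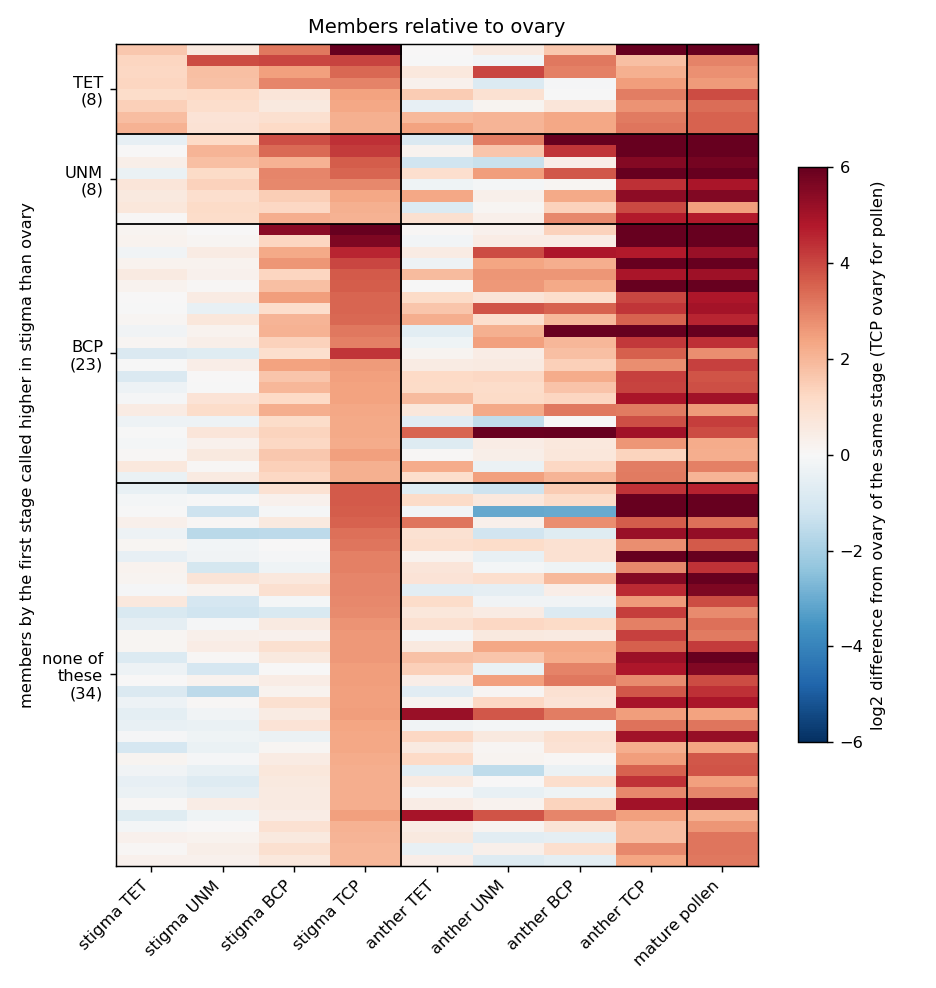
Log2 difference of each member from the ovary of the same stage (mature pollen is set against TCP ovary), in stigma, anther and pollen. Rows are the 73 members in 4 blocks by the first stage called higher in stigma, holding 8, 8, 23 and 34 members from top to bottom; red is higher and blue lower than ovary.

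From UNM to BCP, with the kits unchanged, many members rose in stigma. At BCP 26 of 73 (35.6%) were called higher than at UNM and 0 lower, by limma at the limits given, against 1.89% and 1.72% of all probe sets. The median change was 0.69. With arrays scaled on the hybridisation controls, which moved the median of all probe sets by 0.43, 45 members were called higher and 0 lower, against 5.69% and 0.752% of all probe sets. At an unadjusted p under 0.05, without that scaling, 51 members were higher and 1 lower, against 10.8% and 10.6% of all probe sets. Without stigma UNM replicate 3 there was 1 lower call. Poly-A controls rose over the same step, to 7.15 at BCP, against 5.47 at UNM in stigma, and to 7.23, against 5.10, in ovary. In ovary just 1 member was called higher (1.37%, against 0.833% of all probe sets) and 1 lower (1.37%, against 0.569%), with a median change of -0.08. Scaling on the hybridisation controls, which moved the median of all probe sets by 0.31 in the ovary step, gave 5 higher and 0 lower there. The share over all probe sets under that scaling was not counted for ovary, so the 5 are not read as a rise of members. These single ovary calls, Ta.4748.1.S1_at (higher) and Ta.24748.1.S1_at (lower), were named after their values were seen, and the number of higher calls ranged from 0 to 2 as single ovary arrays were left out, being 0 without BCP replicate 1 and 2 without BCP replicate 2, BCP replicate 3 or UNM replicate 2. That of lower calls was 2 without BCP replicate 3.

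The difference between the organs over that step was tested directly. The stigma minus ovary difference was larger at BCP than at UNM for 29 of 73 members (39.7%) and smaller for none, against 1.94% and 1.35% of all probe sets. The median of this double difference was 0.89. At an unadjusted p under 0.05 in limma, it was larger for 43 and smaller for 0, against 8.52% and 8.34% of all probe sets. TaAffx.12611.1.S1_at had the largest: it read 7.75, 8.84 and 9.14 in stigma at BCP, against 2.76, 2.76 and 2.83 at UNM, a step of 5.79 (SE 0.33, adjusted p = 4.6e-15), and the step exceeded that of ovary by 5.39 (SE 0.46, adjusted p = 1e-09). TaAffx.105012.1.S1_s_at and Ta.11834.1.A1_at exceeded ovary by 2.69 and 2.56. Ta.2641.2.S1_a_at exceeded it by 2.43, with 7.69, 7.50 and 6.76 in stigma at BCP against 5.36, 4.19 and 5.36 at UNM. Of Ta.10436.1.S1_at, the stigma mean was 8.53 at BCP and 5.87 at UNM, a 6.34-fold rise.

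In anthers the members were ahead of ovary at each of the 3 stages tested. At BCP 44 of 73 (60.3%) were called higher and 1 (1.37%) lower in anther than in ovary, against 6.38% and 7.29% of all probe sets, with a median difference of 1.36. At UNM 29 (39.7%) were higher and 5 (6.85%) lower, against 6.06% and 6.48%, with a median of 0.51. At TET 24 (32.9%) were higher and 1 (1.37%) lower, against 4.32% and 3.98%, with a median of 0.53. The anther and stigma comparisons share the ovary arrays of each stage, so their counts are not independent of each other.

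TaAffx.105012.1.S1_s_at had the largest excess in anther at BCP, with 12.70, 12.27 and 13.30 in anther, against 5.36, 5.55 and 4.79 in ovary (184.5-fold, log2 difference 7.53, SE 0.25, adjusted p = 1.9e-23). Its mate TaAffx.105012.1.S1_at was 60.7-fold higher. Ta.4748.1.S1_at was the member furthest ahead at UNM, with 11.54, 11.59 and 11.04 in anther and 5.34, 5.31 and 5.74 in ovary (61.1-fold, log2 difference 5.93, SE 0.32, adjusted p = 4.8e-17), and it was 87.6-fold higher at BCP. In these members all 3 anther arrays lay far above the 3 ovary arrays of the stage. The ovary mean of Ta.4748.1.S1_at was itself higher at BCP, at 6.89, against 5.46 at UNM. Ta.25327.1.A1_at was 28.9-fold higher at BCP and 15.2-fold higher at UNM, Ta.8564.1.S1_x_at 16.1-fold higher at UNM, and Ta.1450.1.S1_at 13.6-fold higher at UNM. At TET the mates Ta.1450.1.S1_x_at and Ta.1450.1.S1_at led, at 35.7-fold and 30.6-fold over ovary (log2 differences 5.16 and 4.94, SE 0.30 each). Their means were 10.45 and 10.24 in anther and 5.30 for each in ovary. The ovary arrays spread widely, at 4.71, 4.61 and 6.57 and at 4.47, 4.86 and 6.56 (SD 1.11 each), so these folds are less certain than the SE shows. Ta.4748.1.S1_at was 11.4-fold and Ta.25476.1.S1_at 9.31-fold higher in anther at TET. The member lower in anther at BCP was TaAffx.138472.1.S1_s_at, at 4.25 in anther and 7.27 in ovary (log2 difference -3.02, SE 0.30), named after its value was seen. There were 2 such members without anther BCP replicate 2, and at TET 3 lower members, against 1, without anther TET replicate 1.

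In anthers 20 members (27.4%) were called higher and 5 (6.85%) lower at BCP than at UNM, against 4.02% and 4.27% of all probe sets. TaAffx.105012.1.S1_s_at rose 25.3-fold, with a mean of 12.76 at BCP and 8.10 at UNM, and Ta.1824.1.S1_at rose 16.4-fold, with 8.50 at BCP and 4.46 at UNM. TaAffx.105012.1.S1_at rose 14.0-fold. Ta.3723.1.S1_at (LOC543262) rose 12.9-fold, with 10.42, 10.04 and 10.68 at BCP, against 6.67, 7.12 and 6.27 at UNM. The 5 members that fell were Ta.1450.1.S1_at, Ta.1450.1.S1_x_at, Ta.29653.1.A1_s_at, Ta.3116.1.S1_at and Ta.2460.2.A1_at, by 1.00 to 1.28 on the log2 scale, named after their values were seen. With arrays scaled on the hybridisation controls, which moved the median of all probe sets by 0.55, 37 members were called higher and 0 lower, against 11% and 2.1% of all probe sets.

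Anther and stigma themselves differed at BCP in both directions. Of the 73 members, 17 (23.3%) were called higher and 11 (15.1%) lower in anther than in stigma, against 7.4% and 7.3% of all probe sets. Mean levels were highest in anther for 42 members, in stigma for 26 and in ovary for 5. That split was not counted over all probe sets, so it is not read as a trait of the members. Ta.4748.1.S1_at was 34.4-fold higher in anther (log2 difference 5.10, SE 0.32, adjusted p = 1.6e-15), with 13.25, 13.19 and 13.59 in anther and 7.66, 8.25 and 8.81 in stigma. TaAffx.105012.1.S1_at and TaAffx.105012.1.S1_s_at were 14.2-fold and 12.6-fold higher in anther. TaAffx.12611.1.S1_at ran the other way, with 4.89, 3.18 and 5.57 in anther and 7.75, 8.84 and 9.14 in stigma (log2 difference -4.03, SE 0.33, adjusted p = 1.5e-12). At BCP its signal was thus 16.3-fold lower in anther than in stigma, while its TCP means were 12.90 in anther and 13.08 in stigma. Where its stigma signal came from was not tested.

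The step from UNM to BCP also differed between anther and stigma. It was larger in anther for 11 members (15.1%) and smaller for 18 (24.7%), against 5.17% and 5.73% of all probe sets. For TaAffx.12611.1.S1_at the anther minus stigma step was -4.30 (SE 0.46, adjusted p = 5.5e-09). For Ta.2641.2.S1_a_at it was -2.62, with a step of -0.28 in anther and 2.35 in stigma. For Ta.1824.1.S1_at the step was larger in anther by 3.28, and for Ta.3723.1.S1_at it was larger in anther by 2.33 (SE 0.36, adjusted p = 6.1e-06).

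**Figure D4:**
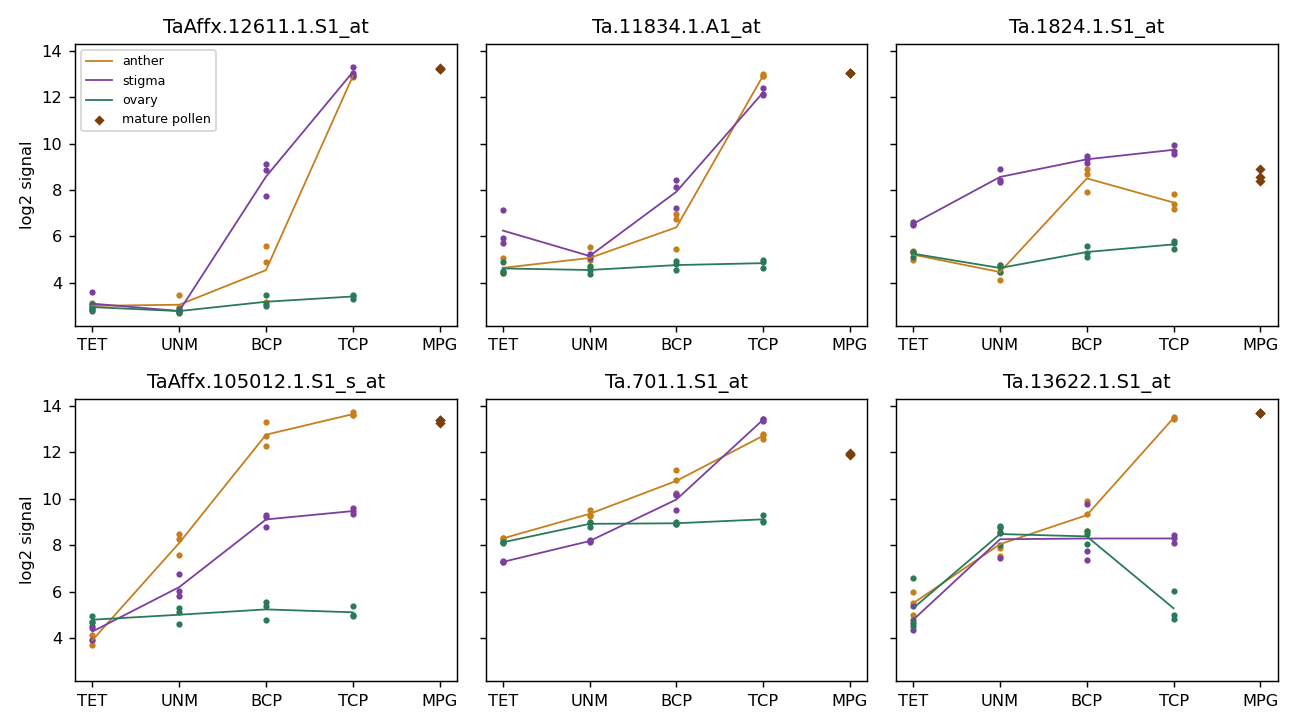
Log2 signal of 6 members on every array, by stage, with lines through the means of anther, stigma and ovary and diamonds for mature pollen (MPG). TaAffx.12611.1.S1_at left the ovary level in stigma at BCP, where its stigma mean was 8.58 and its anther mean 4.54, while Ta.13622.1.S1_at stayed at 8.25 to 8.29 in stigma from UNM on and was at 5.28 in TCP ovary.

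Late levels, which chose the members, were set beside those at BCP as a description. Comparing TCP with BCP crosses a change of kits, so stage and kit cannot be told apart and no test was made. Stigma was at least 1 higher at TCP than at BCP for 48 of 73 members, ovary at least 1 lower for 15, both held for 5, and 15 met neither limit. Among the 34 members without an earlier call, stigma was at least 1 higher for 26 and ovary at least 1 lower for 10. The choice favoured high stigma and low ovary values at TCP, and the shares over all probe sets were not counted. These counts are therefore not read as a trait of the members. TaAffx.12611.1.S1_at was at 12.92, 13.03 and 13.29 in TCP stigma, close to its 13.21, 13.25 and 13.22 in mature pollen, and at 3.31, 3.47 and 3.45 in TCP ovary. Ta.11834.1.A1_at was at 12.13, 12.11 and 12.38 in TCP stigma, at 13.03, 13.04 and 13.05 in mature pollen, and at 4.92, 4.98 and 4.64 in TCP ovary. TaAffx.94479.1.S1_at was the next by the smaller of its differences from ovary, with means of 12.49 in mature pollen, 10.51 in stigma and 4.91 in ovary. Ta.25327.1.A1_at followed, with means of 11.14, 10.52 and 5.96 in the same samples. In the first 3 of these 4, TCP stigma lay more than 5 above TCP ovary, against a median of 2.58 over the 73 members.

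Ta.13622.1.S1_at, chosen after its values were seen, was lower in ovary at TCP without being higher in stigma. It read 8.77, 7.46 and 8.53 in stigma at UNM, 7.74, 7.35 and 9.77 at BCP and 8.33, 8.43 and 8.11 at TCP. In ovary it read 8.84, 8.02 and 8.59 at UNM, 8.61, 8.04 and 8.48 at BCP, and 6.02, 5.00 and 4.82 at TCP. Its stigma mean was thus 8.29 at both BCP and TCP, while its ovary mean was 5.28 at TCP and 8.38 at BCP. In mature pollen it read 13.69, 13.70 and 13.71.

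The 4 members with a locus symbol, given here for that reason after their values were seen, differed in timing too. Ta.701.1.S1_at (LOC543189) was the brightest in TCP stigma relative to pollen, at 13.43, 13.44 and 13.36 in stigma and 11.97, 11.92 and 11.89 in mature pollen. At BCP it read 9.53, 10.22 and 10.15 in stigma, against a mean of 8.94 ± 0.05 (SD, n = 3) in ovary (log2 difference 1.02, SE 0.15, adjusted p = 3.6e-06), and it rose 3.46-fold in stigma since UNM. Ta.5566.3.S1_a_at (LOC100049054) was 3.22-fold higher in stigma than in ovary at BCP (log2 difference 1.69, SE 0.21, adjusted p = 1.2e-07). Ta.24748.1.S1_at (LOC543060) had means of 8.83 in stigma and 8.63 in ovary at BCP, and 8.36 and 9.91 at UNM. Ta.3723.1.S1_at (LOC543262) had means of 7.44 in stigma and 7.42 in ovary at BCP, where the difference did not pass the test (adjusted p = 0.98).

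Other bright pollen probe sets were read on the same arrays as a description. They are non-members, so bright pollen probe sets that were also high in TCP stigma are largely left out, and their TCP stigma values are no measure of what a member could have reached. The 100 brightest non-members in mature pollen that were at least 5 above TCP ovary and at least 5 above every organ at TET had pollen means of 13.34 or more. Their median level was 5.49, 5.46 and 5.35 on the 3 TCP stigma arrays, against 4.47, 4.39 and 4.41 on the 3 TCP ovary arrays. At BCP the same medians were 4.38, 4.45 and 4.54 in stigma and 4.43, 4.34 and 4.45 in ovary. They were 9.10, 7.59 and 9.85 on the 3 BCP anther arrays, a wider spread whose source was not tested. Per probe set, the median log2 difference of stigma from ovary was 0.79 at TCP (quartiles 0.38 and 1.27), with 36 of the 100 at 1 or more, and 0.007 at BCP. On the linear scale, the excess of TCP stigma over TCP ovary was a median of 0.0925% of the excess of pollen over TCP ovary, and at most 4.15%.

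For the members the same percentage had a median of 35.3% and ran from 2.06% to 310%. The lowest was that of Ta.13622.1.S1_at and the highest that of Ta.701.1.S1_at. The percentage comes from the same arrays that chose the members for a high stigma value and kept such probe sets out of the 100, so nothing is read from the gap between the sets. Actin, bright in pollen and not a member, had a mean of 13.61 ± 0.12 in mature pollen and 13.98 ± 0.04 in TCP anther, and 7.15 ± 0.09 in TCP stigma, against 6.65 ± 0.07 in TCP ovary (SD, n = 3 each). Poly-A controls averaged 9.17 in mature pollen and 5.85 in TCP stigma, against 8.77 in TCP ovary, and 5.88 in TCP anther. Their part in the late differences was not tested.

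**Figure D5:**
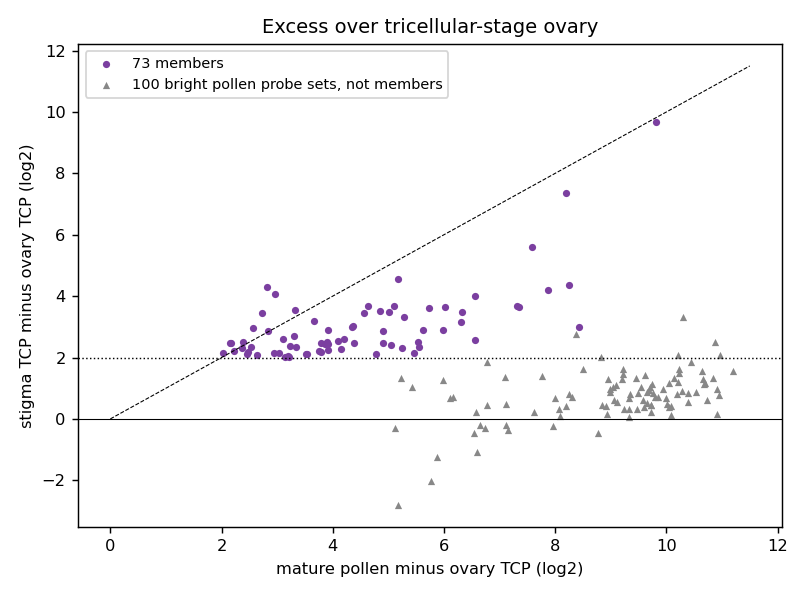
Excess over TCP ovary in stigma (vertical) against that in mature pollen (horizontal), both log2, for the 73 members and for 100 bright pollen probe sets that are not members. The dotted line is the limit of 2 that chose members and the dashed line marks equal excess; the median stigma excess was 2.58 for members and 0.79 for the 100 others.

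The same early stages were read for other late transcripts, chosen by the same limits on TCP and pollen arrays. There were 799 probe sets that met the limits for stigma but not for pollen, and 1441 that met those for pollen, anther limit included, but not for stigma. At BCP 49.3% of the members were called higher in stigma than in ovary, against 60.7% of the 799 and 3.4% of the 1441. At UNM these shares were 17.8%, against 24.4% and 0.486%, and at TET 11%, against 12.3% and 0.278%. In anther over ovary at BCP the share was 60.3% for members, against 25.4% of the 799 and 42.6% of the 1441. Bright probe sets were called more often than all probe sets at BCP. Of 3250 non-members at 8 or more in both mature pollen and TCP stigma, 6.15% were called higher and 1.54% lower in stigma than in ovary. In anther over ovary 13% of them were called higher, and against stigma 10.5% were higher and 10.6% lower in anther. Differences between these sets, which share arrays, were not tested.

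At BCP the 10 stems with more than 1 member had the same call of stigma against ovary in all their members in 8 cases. In 4 of these the members were called higher and in 4 they were not called. The size could still differ within a stem, with log2 differences of 3.88 and 2.09 for the mates of TaAffx.105012 and of 2.66 and 1.81 for those of Ta.2641. In the other two, Ta.2460 and Ta.5118, members lay on either side of the 2-fold limit, with log2 differences of 0.98 to 1.28 and 0.95 to 1.21.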

How the data were processed

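Total RNA was labelled with biotin and hybridised to 39 single-colour arrays. The deposited values are log2 signals per probe set. The submitters' processing notes name RMA as the authors' method, which equalises array distributions; its version is not given in the sources used here. Per the labels' protocols, TET RNA was extracted with PicoPure and amplified in a kit of repeated cycles, RNeasy and the 3' IVT Express kit served UNM and BCP, while TCP and pollen RNA used CsCl with a kit of a single cycle.

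Members and lists were chosen with earlier results of these data known. Of 61290 probe sets, 86 spike-in controls were left out and 61204 tested, with no filter. Tests used limma 3.58.1 in R 4.3.3: a mean per group over all 39 arrays (26 residual and 7.5 prior degrees of freedom), 12 contrasts (3 of them, anther minus ovary at TET, the ovary step and the anther minus stigma step, added after the design) and Benjamini-Hochberg adjustment over all probe sets. No contrast of the 12 arrays that chose the members was tested, and the 27 others carry the tests. Folds are log2 differences on the linear scale, and SDs are over 3 arrays. The fit was tested on simulated data. By rule the text names the 4 members with the largest late difference, the 4 with the largest difference per comparison among those called with groups that do not overlap, those next to each limit, and any with a gene description, of which there were none; keyword lists could therefore not be matched. Gene symbols come from a platform annotation, which pairs 1273 probe sets with 1 symbol each, 771 in all. Replicate numbers deviated together (every correlation over 0.1: 0.261, 0.104 and 0.129) only for anther and stigma at BCP, with nothing in the labels to say why, and the main fit has no pairing. Alternatives were 2 scalings, a filter, other fits and thresholds, other membership limits and leaving out each array.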

Additional observations from a re-analysis of the deposited data

Results flagged for a closer look

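Effects of the same step that differed between organs are listed here. From UNM to BCP, the signed stigma minus ovary difference became higher for 29 members and lower for none. Single double differences were 5.39 for TaAffx.12611.1.S1_at, 2.69 for TaAffx.105012.1.S1_s_at, 2.56 for Ta.11834.1.A1_at and 2.43 for Ta.2641.2.S1_a_at. The signed anther minus stigma difference became higher for 11 members and lower for 18. Groups of 3 arrays are too small for a search for outlying arrays.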

How the results depend on the processing

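The 36 differences named by rule in 9 comparisons kept their direction and call in each of 564 recalculations. They were picked for their size among called members of the same data, so their stability says little about other members. Counts were less stable where they were small: of 318 recalculated values of the 15 other counts, which are of members lower and of the 3 added comparisons, 44 fell and 25 rose beyond 1.5 times. The 9 planned counts of members called higher stayed within 1.5 times under scaling on the brighter 50% of probe sets, the filter on dim probe sets, the 27 arrays alone, limma's trend with robust moderation, an adjusted p under 0.01 and the replicate block. With the replicate block the counts were 36, 13 and 8 for stigma over ovary at BCP, UNM and TET. They were 26 and 29 for the stigma step and its excess over ovary, and 44 and 29 for anther over ovary at BCP and UNM. For the anther step the count was 21 and for anther over stigma 17, and the block ended none of the 36 named calls. Scaling on the hybridisation controls, which moved the median of all probe sets by 0.43 in the stigma step and 0.55 in the anther step, gave 45 and 37 members for these steps. Without a minimum fold there were 42 and 31, and 30 for anther over stigma at BCP. The share over all probe sets without a minimum fold was not counted, so these larger counts are not read as a stronger result. Membership fell to 24 with a difference of at least 3, where the 9 counts were 16, 4, 1, 14, 14, 17, 12, 9 and 6 in the order just used, and to 4 with locus symbols alone, where they were 2, 0, 0, 3, 3, 3, 1, 2 and 1; fewer members make these smaller. With a level of at least 9 (57 members), 8 were higher in stigma than ovary at UNM and 12 rose in the anther step. Without _s_at and _x_at members, an alternative chosen after seeing the data that left 55, 4 were higher in stigma than ovary at TET and 10 in anther than stigma at BCP. Leaving out each array in turn gave 35 to 40, 9 to 15 and 7 to 8 members for stigma over ovary at BCP, UNM and TET. It gave 23 to 28 for the stigma step, 22 to 31 for its excess over ovary, 40 to 45 and 26 to 29 for anther over ovary at BCP and UNM, 18 to 24 for the anther step and 16 to 22 for anther over stigma. Leaving out each of the 12 arrays that chose the members gave 70 to 80 of them. Signals near the floor limit folds against ovary.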

Other observations

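Other probe sets with a member's stem, which the limits did not choose, were read as a description. There were 51 of them, beside 28 of the members. In 24 the means of both mature pollen and TCP stigma were at least 1 above TCP ovary, and 15 had a mean under 6 in both. Some missed a limit narrowly, such as Ta.23227.1.A1_a_at at 1.998 and Ta.2641.2.S1_x_at at 7.98. The arrays are those that chose the members, and shares over all probe sets were not counted. Nothing is therefore read from these counts. At BCP, 9 of the 51 were called higher in stigma than in ovary and 2 lower, against 3.05% and 3.85% of all probe sets.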
